A study of Mus musculus with 24 samples.

Results

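The liver transcripts of 10 acute phase genes were followed across 24 RNA-Seq libraries. They were the serum amyloid A genes Saa1, Saa2, Saa3, and Saa4, the orosomucoid genes Orm1 and Orm2, haptoglobin (Hp), hemopexin (Hpx), lipocalin 2 (Lcn2), and serum amyloid P component (Apcs). All 10 were chosen by name, and all 10 were present among the 23972 genes counted. Female mice carried floxed Lmna alleles (Lmna fl/fl), in which loxP sites flank exons 10 and 11 of the gene for lamin A/C. Controls lacked Cre, whereas Lmna ADKO mice carried Adipoq-Cre, whose promoter is active in adipocytes and not in hepatocytes, so the deletion is not directed at the cells that make most of these transcripts. All mice were fed a diet with 60% of its energy from fat, were housed at 22°C, and entered experiments at 12 to 14 weeks of age. By the methods, mice received an adeno-associated virus of serotype 8 (AAV8) carrying mouse FGF21, a liver-derived metabolic hormone, or vehicle (PBS with Pluronic), and livers were taken 8 weeks later. The labels call the treated groups only "Rescue", and FGF21 is read from the methods. The livers came from 7 vehicle-treated controls, 3 FGF21-treated controls, 6 vehicle-treated Lmna ADKO mice, and 8 FGF21-treated Lmna ADKO mice, with 1 library per animal.

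In the acute phase response, cytokines such as IL-6 and IL-1 reach the hepatocyte and act through STAT3, NF-κB, and C/EBP transcription factors to change the output of secreted plasma proteins. Positive acute phase proteins rise and negative ones, such as transthyretin, fall. In mice, Saa1, Saa2, and Apcs encode major positive acute phase proteins, Lcn2, Orm1, Orm2, Hp, and Hpx are also induced, Saa3 is made largely outside hepatocytes, and Saa4 is known as the constitutive member of its family.

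The serum amyloid A genes lie side by side within 42.3 kb of chromosome 7 (GRCm38, 46711998 to 46754313), and Orm1 (63344560 to 63348163) and Orm2 (63362449 to 63365878) lie close together on chromosome 4 with Orm3 between them. Hp lies on chromosome 8 (109575128 to 109579172), Hpx on chromosome 7 (105591613 to 105600137), Lcn2 on chromosome 2 (32384633 to 32388252), and Apcs on chromosome 1 (172893961 to 172895041). Of the distinct 50-base stretches in the principal mRNA, 14.8% in Saa1, 9.12% in Saa2, 20.4% in Orm1, and 22.7% in Orm2 also occur in the mRNA of another gene, so the split of counts within each pair is uncertain. None of those of Hp, Hpx, Lcn2, or Apcs are shared.

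The RefSeq promoter table (GRCm38.p6) held 8 of the 10 genes, without Hp and Orm1. The 250 bases before the RefSeq start are shown for Saa1, Saa2, Orm2, and Lcn2, the genes that varied most among livers of the same group. Capitals mark matches to a short C/EBP pattern, TTNNGNAA on either strand.
Saa1, chr7:46742981-46743230, minus strand: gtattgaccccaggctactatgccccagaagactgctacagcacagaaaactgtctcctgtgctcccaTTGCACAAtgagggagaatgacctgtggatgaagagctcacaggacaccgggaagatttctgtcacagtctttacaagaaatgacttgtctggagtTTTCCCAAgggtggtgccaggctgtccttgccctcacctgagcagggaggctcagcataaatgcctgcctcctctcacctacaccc
Saa2, chr7:46751583-46751832, plus strand: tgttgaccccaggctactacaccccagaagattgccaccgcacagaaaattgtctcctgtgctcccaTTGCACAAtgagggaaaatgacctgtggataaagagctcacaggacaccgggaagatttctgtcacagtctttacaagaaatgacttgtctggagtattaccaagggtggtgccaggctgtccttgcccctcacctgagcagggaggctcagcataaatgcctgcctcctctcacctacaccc
Orm2, chr4:63362199-63362448, plus strand: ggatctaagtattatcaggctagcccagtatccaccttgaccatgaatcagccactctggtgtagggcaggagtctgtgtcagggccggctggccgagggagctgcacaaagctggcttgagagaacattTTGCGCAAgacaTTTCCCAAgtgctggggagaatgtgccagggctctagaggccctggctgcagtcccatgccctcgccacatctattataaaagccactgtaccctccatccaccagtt
Lcn2, chr2:32387740-32387989, minus strand: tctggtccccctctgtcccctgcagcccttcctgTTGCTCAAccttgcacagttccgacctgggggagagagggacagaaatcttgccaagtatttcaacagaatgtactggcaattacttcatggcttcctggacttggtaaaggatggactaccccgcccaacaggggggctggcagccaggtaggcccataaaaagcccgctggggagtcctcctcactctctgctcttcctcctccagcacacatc
Over the full windows of 250 bases before to 50 bases after the start, those of Saa1 and Saa2 were 95.3% identical in an alignment. The match beginning at -182 in Saa1 has its counterpart at -183 in Saa2, whereas the match at -86 in Saa1 has none in the near-identical Saa2 stretch. Orm2 held 2 matches, at -120 and -108, and Lcn2 held 1, at -216. This pattern was found in 40.7% of all 32851 promoters of the table, so its presence in 7 of these 8 genes is a description of the letters and not a measured binding site. A STAT pattern, TTCNNNGAA, occurred only in Apcs among the 8 (8.30% of all promoters), and the NF-κB consensus occurred in none of them (8.46% of all promoters).

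Libraries held 19863304 to 21510054 counted reads. Lmna, the floxed gene, was read at 15.7 to 22.1 CPM (counts scaled to library size, per 1e6 reads) in vehicle-treated controls and at 23.6 to 31.0 CPM in vehicle-treated Lmna ADKO mice, which does not check a deletion made in adipocytes. Fgf21 was at 1.90 to 10.8 CPM in vehicle-treated controls and at 3.14 to 7.40 CPM in FGF21-treated controls, and so it did not set the treated livers apart. In 3 libraries (vehicle-treated control 3, FGF21-treated control 3, and FGF21-treated Lmna ADKO 7), log2 CPM minus the median of all libraries of the same genotype fell with gene length. The slopes were -0.154, -0.29, and -0.331 per log2 of length, against -0.109 to 0.128 in the other 21. Hepatocyte markers summed to 68725 to 143116 CPM over the libraries, with all 10 detected, and adipocyte markers to 15.3 to 27.6 CPM. Animal numbers had 3 digits in 6 of 7 vehicle-treated controls and 4 digits in 5 of 6 vehicle-treated Lmna ADKO mice, so that this numbering and genotype are nearly confounded. All 3 FGF21-treated controls had 4-digit numbers, so that in controls numbering and treatment are nearly confounded as well.

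Levels differed widely between members. Per kilobase of principal mRNA, the median over the 24 livers was 3820 CPM for Hp, which binds free hemoglobin, and 3374 CPM for Hpx, which binds heme. Hp exceeded Hpx in 20 of 24 livers. Orm1, an abundant plasma carrier of lipophilic compounds, followed at 562 CPM per kilobase, below Hpx in all 24. Saa1 stood at 195 CPM per kilobase, Saa4 at 181, and Saa2 at 118. Saa1 exceeded Saa4 in only 14 of 24 livers, so their order was not fixed. Apcs was at 91.2 CPM per kilobase, Lcn2 at 80.1, Orm2 at 46.5, and Saa3 at 19.3. Apcs exceeded Lcn2 in 14 of 24 livers. The 10 genes together took 0.734% to 2.34% of all counted reads.

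The highest of those shares, 2.34%, was that of 1 liver, vehicle-treated control 1. The other 6 vehicle-treated controls lay between 0.734% and 1.11%. Because this liver decides the sign of several fold changes fitted to the counts, it is described before them.

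Vehicle-treated control 1 carried raised acute phase transcripts, with Saa1, Saa2, Orm1, Orm2, Lcn2, and Apcs higher than in any other liver of the series. Saa1, whose protein associates with high-density lipoprotein during inflammation, stood at 1691 CPM in this liver, whereas the other 6 vehicle-treated controls lay between 39.4 and 142 CPM. Its paralog Saa2 stood at 1638 CPM against 25.5 to 76.8 CPM. Both were higher here than in any of the other 23 livers, of which the next highest held 289.5 CPM of Saa1 and 146 CPM of Saa2.

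Lcn2, which sequesters bacterial siderophores, was at 441 CPM in vehicle-treated control 1 and at 20.3 to 67.9 CPM in the other 6. Orm2 was at 212 CPM against 12 to 30.1 CPM. Orm1 was at 1219 CPM against 223 to 479 CPM. Apcs, a pentraxin, was at 300.1 CPM against 66.9 to 122 CPM, and Hp at 7685 CPM against 2756 to 4096 CPM. For these 5 genes, too, control 1 lay above every other vehicle-treated control.

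Hpx was at 8427 CPM in control 1, with 6203 CPM in control 4 and 3703 to 4087 CPM in the remaining 5. Saa4 was at 515 CPM against 262 to 427 CPM. Saa3 was at 10.7 CPM, within the range of the other 6 (5.83 to 15.2 CPM). Thus 9 of 10 members were above all 6 other vehicle-treated controls, as were 11.5% of the 12492 genes whose log2 CPM averaged 0 or more. Library 1 was singled out after its values were seen, and these are descriptions without a test.

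The size of the excess was ordered. Relative to the median of the other 6, Saa2 was 40.8-fold, Saa1 30.4-fold, Lcn2 16.1-fold, and Orm2 10.5-fold higher, and these were the 4 genes with the largest excess on the log2 scale among all 12492. Apcs (3.24-fold, rank 21) and Orm1 (3.22-fold, rank 23) followed, then Hpx (2.15-fold, rank 79) and Hp (2.08-fold, rank 89). Saa4 was 1.35-fold higher, with rank 788.

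**Figure D1:**
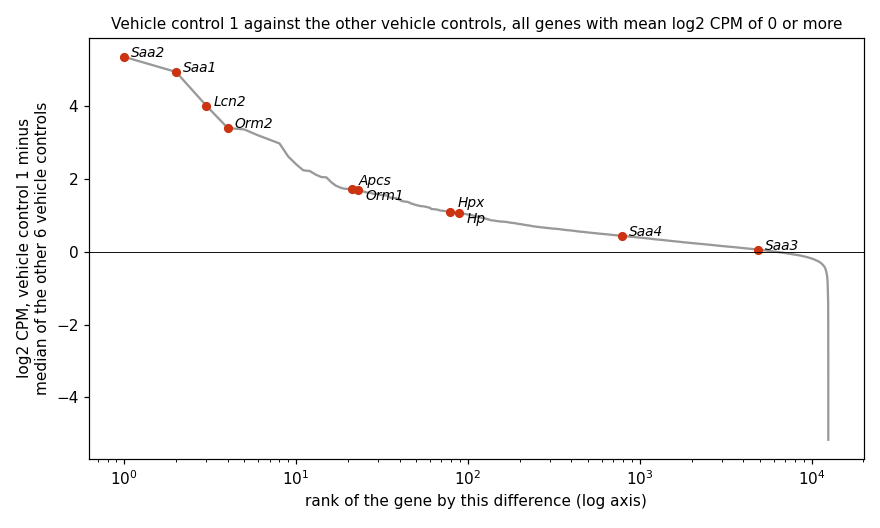
The grey line gives, for each of the 12492 genes whose log2 CPM averaged 0 or more, log2 CPM in vehicle-treated control 1 minus the median of the other 6 vehicle-treated controls (y axis), by rank (x axis, log scale), and red points mark the 10 acute phase genes. Saa2, Saa1, Lcn2, and Orm2 hold ranks 1 to 4, whereas Saa3 lies near a difference of 0.

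The balance between close paralogs also differed in this liver. Reads of Saa1 over reads of Saa2 were at 1.03 in control 1, whereas the other 23 livers ranged from 1.11 to 1.98 with a median of 1.49. Orm1 over Orm2 was at 5.76, against 13.1 to 27.5 in the other 6 vehicle-treated controls, although vehicle-treated Lmna ADKO livers reached 5.19 as well. The shared stretches of sequence limit both ratios.

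Other genes of the response moved in the same liver. Of 30 other positive acute phase genes at that level, 19 were above all 6 other vehicle-treated controls and 3 were below, with a median log2 difference of 0.65 against 0.00 for all genes. Fgl1, a hepatocyte-secreted fibrinogen-like protein, was 3.50-fold over the median, Lrg1, a leucine-rich glycoprotein, 3.32-fold, and the metallothionein gene Mt2 4.34-fold. Of all 12492 genes at that level, 11.5% were above all 6 and 12.1% were below. Of 13 negative acute phase genes, 0 were above all 6 and 5 were below, with a median difference of -0.32. These names were picked after the values were seen.

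Transcripts of some upstream cytokines were sparse, whereas those of transcription factors were not. Of the genes at a mean log2 CPM of 0 or more, 6 of 17 in IL-6 and STAT3 signaling and 5 of 17 in IL-1, TNF, and NF-κB signaling were above all 6 other vehicle-treated controls in control 1, against 11.5% of all genes. Il6 had 0 to 7 counts in any library, and 0 in vehicle-treated control 1. Il1b, a cytokine of myeloid cells, was at 12.9 CPM in control 1 against 2.87 to 6.87 CPM in the other 6. Socs3, a feedback inhibitor induced by STAT3, was at 18.2 CPM against 6.97 to 19.1 CPM, and Stat3 at 138 CPM against 72.2 to 120 CPM. Cebpb (63.3 CPM) and Cebpd (6.17 CPM) lay within the range of the other controls.

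Markers of other cells moved with the response. The 13 neutrophil markers summed to 32.4 CPM in control 1, against 6.54 to 14.3 CPM in the other 6 vehicle-treated controls, and the defining marker Ly6g stayed at 3 counts or fewer in every library. The 12 macrophage markers summed to 1077 CPM against 731 to 919 CPM, with none at 0, and the 10 hepatocyte markers to 82480 CPM against 101067 to 141821 CPM. Their part in the levels of the acute phase genes was not tested. In whole liver, more transcript per cell and more cells that make it cannot be told apart.

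**Figure D2:**
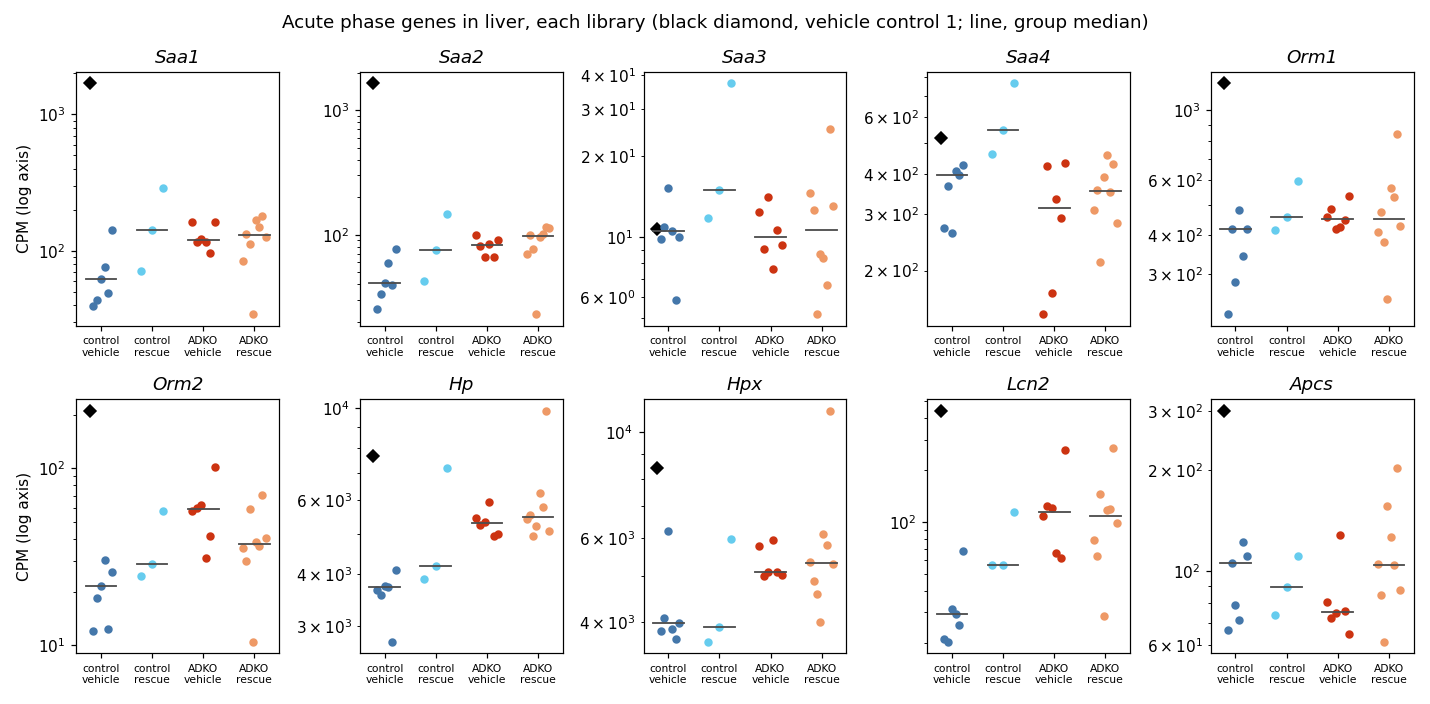
CPM of each acute phase gene (y axis, log scale, a scale of its own per gene) in each of the 24 livers by group (x axis). Points are livers, lines are group medians, and the black diamond is vehicle-treated control 1, which is the highest liver of all 24 for Saa1, Saa2, Orm1, Orm2, Lcn2, and Apcs.

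The first comparison asked how lipodystrophy changes these transcripts in vehicle-treated livers. With all 7 controls, 0 of 10 members were called by edgeR's quasi-likelihood test at an adjusted p below 0.05 and a change above 1.5-fold, whereas 8.48% of all genes were called. The number of members with an unadjusted p below 0.05 was also 0, against 6481 of all genes. The median log2 fold change of the members was -0.03, against 0.00 for all genes. DESeq2 on all groups called 0 members as well, whereas DESeq2 on these 2 groups alone called 4 (Saa1, Saa2, Orm2, and Lcn2, all higher in Lmna ADKO livers). DESeq2 can replace outlying counts, as it did for Saa2 in the fit of all groups. Whether it did so in the fit of these 2 groups was not recorded. Those 4 calls may therefore not rest on the counts of all 7 controls as measured.

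When vehicle-treated control 1 was left out, 2 of 10 members were called, both higher in Lmna ADKO livers, against 8.06% of all genes called in either direction and 4.82% called higher. Those were Lcn2 and Orm2. The number of members with a positive fold change went from 5 to 8 of 10, and their median log2 fold change from -0.03 to 0.46, whereas that of all genes was 0.00 in both. This choice of libraries was made after the values were seen.

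Lcn2 ranged from 62.3 to 259 CPM in vehicle-treated Lmna ADKO livers, with a median of 115 CPM. In the controls without library 1 it ranged from 20.3 to 67.9 CPM, with a median of 27.3 CPM. The groups overlapped through the highest of those controls, library 7, at 67.9 CPM, which exceeded the 2 lowest Lmna ADKO livers. The log2 fold change was 1.92 ± 0.46 (SE), 3.79-fold, with an adjusted p of 0.00793 in edgeR. With all 7 controls it was 0.44 ± 0.68, with an adjusted p of 0.739. In the exact two-sided permutation test of log2 CPM, p was 0.00649 without library 1 and 0.0927 with it.

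Orm2 ranged from 31.1 to 102.3 CPM in vehicle-treated Lmna ADKO livers, with a median of 58.5 CPM, against 12 to 30.1 CPM and a median of 20.1 CPM in the 6 controls. All 6 Lmna ADKO livers were above all 6 controls, although the lowest of the former (31.1 CPM) and the highest of the latter (30.1 CPM) nearly met. The log2 fold change was 1.55 ± 0.37 (SE), with an adjusted p of 0.00737 in edgeR, against 0.31 ± 0.59 and 0.797 with library 1 included. Orm2 shares sequence with Orm1, and Orm1, Orm2, and Orm3 summed gave 0.44 ± 0.21 without library 1, with an adjusted p of 0.177. Orm1 makes up most of that sum, with a mean of 360 CPM in the 6 controls against 20.1 CPM for Orm2. The sum therefore cannot check the change of Orm2 itself.

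Hp ranged from 4919 to 5964 CPM in vehicle-treated Lmna ADKO livers and from 2756 to 4096 CPM in the 6 controls, with no overlap. Its log2 fold change was 0.57 ± 0.16 (SE), with an adjusted p of 0.0196 in edgeR, but the change of 1.48-fold stayed under the limit for a call. With library 1, at 7685 CPM, it was 0.35 ± 0.19, with an adjusted p of 0.259. Exact p was 0.00216 without library 1, the smallest that 6 against 6 livers allow, and 0.0524 with it. Hp and Orm2 were the 2 of 10 members whose groups did not overlap without library 1, where 8.93% of all genes did not overlap, and 0 of 10 did so with it, against 7.95%.

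The edgeR fold changes of Saa1 and Saa2 changed sign with library 1. The difference in mean log2 CPM stayed positive, at 0.35 and 0.16 with all 7 controls and 1.03 and 0.91 without library 1. Saa1 ranged from 96.4 to 162 CPM in vehicle-treated Lmna ADKO livers, with a median of 119 CPM, and from 39.4 to 142 CPM in the 6 controls, with a median of 55.6 CPM. Its log2 fold change was -1.22 ± 0.78 (SE) with all controls, with an adjusted p of 0.336, and 0.91 ± 0.37 without library 1, with an adjusted p of 0.121 in edgeR. Saa2 went from -1.75 ± 0.85, with an adjusted p of 0.194, to 0.83 ± 0.33, with an adjusted p of 0.106. Summed to set aside the shared reads, they gave -1.45 ± 0.81 and 0.88 ± 0.35, with adjusted p of 0.265 and 0.108. Thus neither gene was called by edgeR in either set of livers.

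The remaining members differed less. Hpx ranged from 5007 to 5964 CPM in the Lmna ADKO group, and its log2 fold change was 0.13 ± 0.21 (SE) with all controls and 0.32 ± 0.19 without library 1. Orm1 ranged from 419 to 531 CPM, with values of -0.07 ± 0.30 and 0.35 ± 0.20. Apcs ranged from 64.8 to 128 CPM, with values of -0.56 ± 0.32 and -0.16 ± 0.23. The lowest adjusted p among these 3 genes in edgeR was 0.262, for Apcs with all controls.

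The other serum amyloid A genes did not follow Saa1 and Saa2. Saa3 ranged from 7.64 to 14.1 CPM in the Lmna ADKO group and from 5.83 to 15.2 CPM in controls, a log2 fold change of 0.01 ± 0.32 (SE) with all 7 controls and 0.02 ± 0.34 without library 1. Saa4 ranged from 146 to 432 CPM in Lmna ADKO livers and from 262 to 515 CPM in controls, with -0.34 ± 0.23 and -0.25 ± 0.23. Saa3 was within the spread of the controls, and 2 Lmna ADKO livers, at 146 and 170 CPM, fell below all controls for Saa4.

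**Figure D3:**
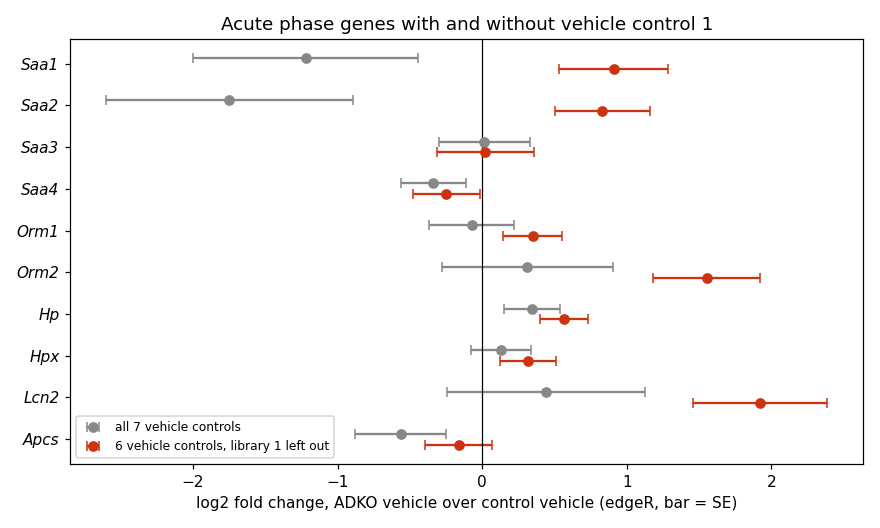
Log2 fold change of each acute phase gene in vehicle-treated Lmna ADKO over control livers (x axis, edgeR, bars are SE) with all 7 controls (grey) and with library 1 left out (red). Saa1 moves from -1.22 to 0.91 and Saa2 from -1.75 to 0.83, whereas Saa3 stays near 0.

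The number series of the animals moved with some of these values. The only vehicle-treated control with a 4-digit number, library 7, held 142 CPM of Saa1 and 67.9 CPM of Lcn2, the highest of the 6 controls for both genes, whereas 5 controls with 3-digit numbers held 39.4 to 75.6 CPM and 20.3 to 31.4 CPM. Among 4-digit numbers, the 5 Lmna ADKO livers held 62.3 to 259 CPM of Lcn2 and 31.1 to 102.3 CPM of Orm2, against 67.9 and 26.0 CPM in the single control. Among 3-digit numbers, the single Lmna ADKO liver held 108 CPM of Lcn2 and 57.2 CPM of Orm2, against 12 to 30.1 CPM of Orm2 in 5 controls. That liver held the most Saa1 and Saa2 of its group, 162 and 99.4 CPM against 96.4 to 161 and 65.9 to 90.8 CPM, so that 3-digit numbers were not lower there. In FGF21-treated Lmna ADKO livers, with 4 of each series, Lcn2 was at 28.6 to 144 CPM with 3-digit and 98.5 to 269 CPM with 4-digit numbers, and Saa1 at 34.1 to 133 and 125 to 180 CPM. With 1 liver on one side of each series, no exact permutation test within a series could pass 0.05. With the series as a covariate and without library 1, Lcn2 stood at 1.46 (adjusted p = 0.0422 in edgeR) and Orm2 at 1.33 (adjusted p = 0.0521).

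The second comparison asked whether FGF21 changed these transcripts in Lmna ADKO livers. It called 0 of 10 members, and 0% of all genes, in edgeR; 0 members and 1608 genes had an unadjusted p below 0.05. Without FGF21-treated Lmna ADKO 3, 61 genes were called, and DESeq2 on all groups called 15, with 0 members in either. Lcn2 ranged from 28.6 to 269 CPM in FGF21-treated Lmna ADKO livers, with a median of 108 CPM against 115 CPM in the vehicle group. Orm2 had a median of 37.4 CPM against 58.5 CPM, a log2 fold change of -0.56 ± 0.57 (SE), with an adjusted p of 0.832. Apcs had a median of 104 CPM against 75.3 CPM, with 0.49 ± 0.31 and an adjusted p of 0.727. The groups overlapped for all 10 members.

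Single livers again set the range in this group. FGF21-treated Lmna ADKO 4 held 34.1 CPM of Saa1, 23 CPM of Saa2, 10.5 CPM of Orm2, and 28.6 CPM of Lcn2, the lowest of its 8 for each, whereas its Apcs, at 156 CPM, was second only to library 7. FGF21-treated Lmna ADKO 7 held 9848 CPM of Hp, 11098 CPM of Hpx, 269 CPM of Lcn2, and 203 CPM of Apcs, the highest of its 8. That liver was among the 3 whose log2 CPM, relative to livers of the same genotype, fell with gene length, and the part of this in its levels was not tested.

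In controls, FGF21 treatment called 0 of 10 members in edgeR, against 0.0542% of all genes; 2 members had an unadjusted p below 0.05. Those were Saa3 and Saa4. The 13 genes called overall became 26 without vehicle-treated control 6, 8 without any 1 of vehicle-treated controls 2, 3, and 7 and FGF21-treated control 1, and 3 without FGF21-treated control 2. Saa3 stood at 11.8, 15.03, and 37.3 CPM in the 3 FGF21-treated controls, above a vehicle median of 10.5 CPM but overlapping its highest liver, at 15.2 CPM. Its log2 fold change was 1.03 ± 0.37 (SE), with an adjusted p of 0.659. Saa4 stood at 459, 547, and 764 CPM against 262 to 515 CPM, with 0.64 ± 0.27 and an adjusted p of 0.755. Exact two-sided p was 0.025 for Saa3 and 0.0417 for Saa4, before any correction for 10 members, where 1 in 120 is the smallest value this design gives.

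The highest of the 3 FGF21-treated controls was the same liver, library 3, for all of Saa1 to Saa4, Orm1, Orm2, Hp, Hpx, Lcn2, and Apcs. It was also among the 3 livers with a slope on gene length. For Saa1, the 3 values were 70.6, 142, and 289.5 CPM, and the log2 fold change against vehicle went from -0.84 ± 0.99 to 1.29 ± 0.44 (SE) when vehicle-treated control 1 was left out. For Lcn2 (56.4, 56.7, and 115 CPM) it went from -0.26 ± 0.86 to 1.22 ± 0.53. For Saa2 it went from -1.63 ± 1.11 to 0.94 ± 0.39, and for Orm2 from -0.36 ± 0.75 to 0.88 ± 0.44. The difference in mean log2 CPM was already positive with all vehicle-treated controls. It was 0.52 for Saa1, 0.71 for Lcn2, 0.11 for Saa2, and 0.36 for Orm2. Without vehicle-treated control 1, the number of members with an unadjusted p below 0.05 went from 2 to 6, and 0 were called in edgeR in either set of livers. When the 3 libraries with a length slope, among them FGF21-treated control 3, were left out as well, the values were 0.54 for Saa1, 0.69 for Lcn2, 0.29 for Saa2, and 0.38 for Orm2. All 3 FGF21-treated controls had 4-digit numbers. The single vehicle-treated control with such a number held 142 CPM of Saa1 and 67.9 CPM of Lcn2. Those with 3-digit numbers, library 1 aside, held 39.4 to 75.6 and 20.3 to 31.4 CPM. Numbering and treatment were thus nearly confounded in these folds.

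Between genotypes under FGF21, 0 of 10 members were called in edgeR, against 2.88% of all genes, and 2 had an unadjusted p below 0.05. The 690 genes behind that share became 1149 without FGF21-treated Lmna ADKO 7, 416 without FGF21-treated control 2, and 339 without FGF21-treated control 3. Saa4 ranged from 213 to 457 CPM in FGF21-treated Lmna ADKO livers, below all 3 FGF21-treated controls, with a log2 fold change of -0.76 ± 0.27 (SE) and an adjusted p of 0.114. The groups nearly met, as the lowest of those controls was at 459 CPM. The share of all genes without overlap was not computed for this comparison, so the separation of Saa4 is not read as a difference from other genes. Saa3 ranged from 5.18 to 25.3 CPM, with -0.86 ± 0.37 and an adjusted p of 0.225. Lcn2 differed by 0.60 ± 0.86, with an adjusted p of 0.749. Each group here also enters another of the comparisons, so their values are not independent.

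The effect of FGF21 was not shown to differ between genotypes for any member. The interaction called 0 of 10, with 0 at an unadjusted p below 0.05, where 0.00417% of all genes were called, which is 1 gene, and 0 to 5 genes with single livers left out. Members' interaction values ran from -0.87 to 1.73 on the log2 scale, with a lowest adjusted p of 0.984 in edgeR. With vehicle-treated control 1 left out, they ran from -1.44 to 0.50, and 2 members had an unadjusted p below 0.05.

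Within groups, Saa2, Saa1, Lcn2, and Orm2 were among the most variable genes of the liver. The within-group SD of log2 CPM was 1.25 for Saa2, 1.19 for Saa1, 1.11 for Lcn2, and 0.98 for Orm2, at percentiles 99.5, 99.4, 99.3, and 99.0 of 12492 genes. In the 23 other livers, the SDs were 0.63, 0.69, 0.78, and 0.68, still at percentiles 96.1 to 98.0. Hp, at 0.35, and Hpx, at 0.39, lay at percentiles 75.7 and 81.1. Without control 1 they lay at percentiles 56.3 and 71.0.

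The members varied together from liver to liver. After subtraction of each group's mean, the median Pearson r over the 45 pairs was 0.65 across 24 livers and 0.50 across the 23 without vehicle-treated control 1, with 28 and 23 pairs above 0.5. Saa1 and Saa2, which share reads, had r of 0.99 and 0.96. Lcn2 and Orm2, on different chromosomes, had r of 0.95 and 0.89. Lcn2 and Saa1 had 0.91 and 0.80. Apcs lost its relation to Lcn2 (0.47 and 0.00), and Saa3 and Saa4 had r of 0.04 and 0.03 with each other. All points share libraries, so these are descriptions.

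**Figure D4:**
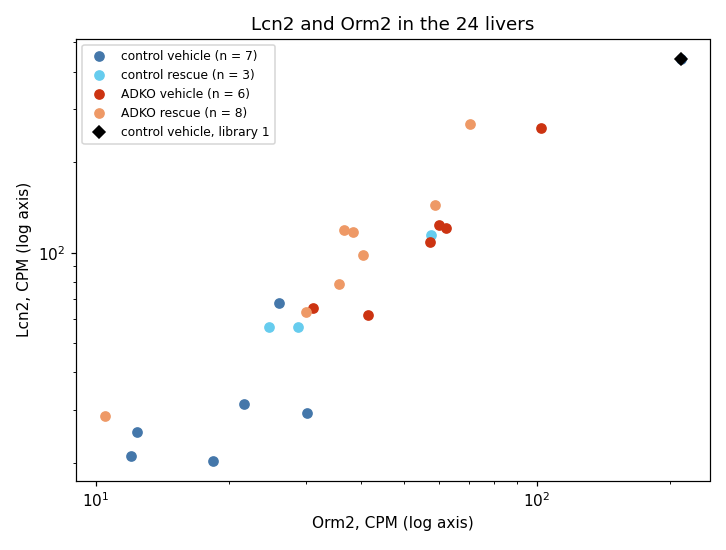
Lcn2 (y axis) against Orm2 (x axis) in CPM, both on log scales, in the 24 livers colored by group, with vehicle-treated control 1 as a black diamond. The vehicle-treated controls other than library 1 lie at the lower left, with Lcn2 at 20.3 to 67.9 CPM, and vehicle-treated Lmna ADKO livers reach higher, from 62.3 to 259 CPM, with an overlap in Lcn2 through control 7.

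**Figure D5:**
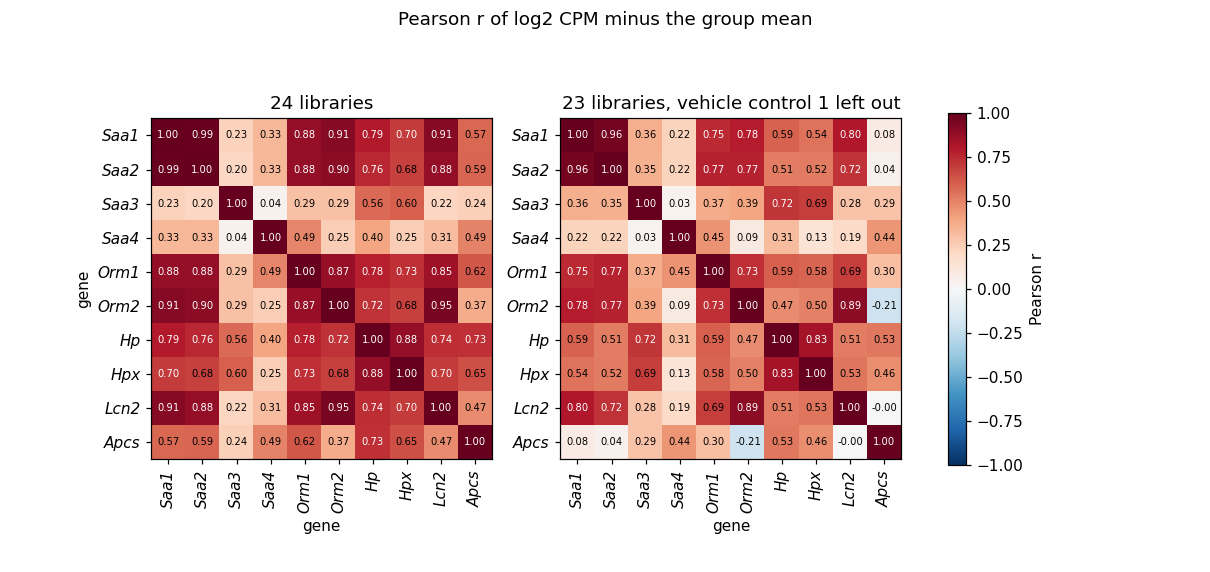
Pearson r of log2 CPM minus the group mean for each pair of acute phase genes (rows and columns) across all 24 livers (left) and across 23 without vehicle-treated control 1 (right), with color from -1 (blue) to 1 (red). Saa1, Saa2, Orm1, Orm2, and Lcn2 remain related on the right, whereas r of Apcs with Lcn2 falls from 0.47 to 0.00.

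The genes outside the list with the most similar pattern were sought for 7 members. For all 7, the first-ranked gene changed when vehicle-treated control 1 was left out, although for Saa3 only between near-equal r. Across 24 livers, the 3 genes most like Lcn2 were Jak3 (r of 0.82), Cyb561 (0.80), and Mbnl2 (0.77), and those most like Orm2 were Jak3 (0.86), Cyb561 (0.76), and Ano10 (0.76). Saa1 was most like Acp2 (0.77), Chil1 (0.76), and Serpina3n (0.74), and Saa2 like Prg4 (0.75), Chil1 (0.74), and Serpina3n (0.72). Hp was most like Serpina10 (0.92), Tmem176a (0.85), and Tmem176b (0.81), and Hpx like the same 3 genes, led by Tmem176a (0.87). For Saa3 they were Serf1, Lst1, and 2810025M15Rik (0.85, 0.85, and 0.84). In the 23 livers without vehicle-treated control 1, the nearest gene became Tnfrsf23 for both Lcn2 (0.85) and Orm2 (0.90). It became Nqo1 for Saa1 (0.88), H2-D1 for Saa2 (0.83), Commd4 for Hp (0.93), and Sri for Hpx (0.89). Saa3 kept the same 3 genes, with Lst1 (0.85) now just ahead of Serf1 (0.85). Acp2 stayed among the 3 nearest genes of Saa1 (0.80), Tmem176a among those of Hpx (0.88), and Mbnl2 among those of Lcn2 (0.84). The search ran over 12482 genes in each set. It was not run without the 3 libraries with a length slope, and the part of that slope in these r was not tested. Without those libraries, the median r over the 45 member pairs went from 0.65 to 0.59. For Saa3, r went from 0.56 to 0.20 with Hp and from 0.60 to 0.28 with Hpx.

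The wider acute phase program did not rise as a block in Lmna ADKO livers. Of 32 other positive acute phase genes, 4 rose and 9 fell in edgeR in the vehicle groups, where 5.12% of all genes were called higher and 3.36% lower, with a median log2 fold change of -0.37. The complement gene C3 fell by 1.28 (adjusted p = 6.43e-06), Mt1 by 1.41 (adjusted p = 0.0449), and Fgl1 by 1.2 (adjusted p = 0.00558). With vehicle-treated control 1 left out, 4 rose and 6 fell. Mt1 was then no longer called, and Fgl1 fell by 0.79 (adjusted p = 0.00528). Control 1 itself held 2.59-fold as much Mt1 and 3.50-fold as much Fgl1 as the median of the other 6. Of 13 negative acute phase genes, 7 fell and 0 rose, with a median of -0.71, and 7 fell without that liver too. Apom, a lipocalin of lipoproteins, fell by 1.64 (adjusted p = 1.52e-08), the fetuin genes Fetub and Ahsg by 1.18 and 1.04 (adjusted p = 1.49e-05 and 8.99e-06), and Serpina6, the corticosteroid-binding globulin, by 1.3 (adjusted p = 0.000575).

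Under FGF21, 1 other positive acute phase gene was higher (A2m, at 0 or 1 count in each FGF21-treated control and 4 to 26 counts in the Lmna ADKO livers) and 2 were lower in Lmna ADKO livers, Mt1 by 1.85 and Serpina1a by 0.68 on the log2 scale (adjusted p = 0.0458 and 0.0298 in edgeR). Without vehicle-treated control 1, 4 were lower, with C3 (by 0.64, adjusted p = 0.0434) and Fgl1 (by 0.83, adjusted p = 0.0256) added. Of the negative ones, 5 of 13 were lower, namely Pon1, Ahsg, Fetub, Apom, and Serpina6, by 0.73 to 1.58. Of all genes, 2.88% were called in either direction in this comparison with all livers. With so few genes per list, these counts are not read as a difference from all genes. FGF21 against vehicle called 0 genes of either list in either genotype in edgeR. Of all genes, it called 0.0542% in controls and 0% in Lmna ADKO livers. With so few genes called anywhere, this does not show that FGF21 left the lists unchanged. These lists were chosen with earlier results of the data known.

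Among upstream genes, 3 of 22 in the list of IL-6 and STAT3 signaling rose in vehicle-treated Lmna ADKO livers and 2 fell, beside the 5.12% of all genes called higher and 3.36% called lower, and with so few genes these counts are not read as a difference from all genes. Cebpd, a transcription factor of acute phase promoters, was at 5.65 to 20.6 CPM against 4.36 to 7.24 CPM in vehicle-treated controls, with a log2 fold change of 1.17 ± 0.21 (SE) and an adjusted p of 0.000452 in edgeR. It was at 13.4 to 16.3 CPM in FGF21-treated controls, 1.38 ± 0.25 above vehicle, with an adjusted p of 0.0268 (0.0508 without vehicle-treated control 1). Osmr, the oncostatin M receptor, rose by 0.62 (adjusted p = 0.00708). Lif rose as well, from 0 to 5 counts per library to 4 to 24, and is named after its values were seen because its level was under the limit set for names. Lifr, its receptor, fell by 1.34 (adjusted p = 1.19e-08). Under FGF21, Lifr was again lower in Lmna ADKO livers, by 1.01 (adjusted p = 4.14e-05), and was the only gene of this list called.

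Il1b, Tnf, and Il6 were not called in the vehicle groups. Il1b differed by -0.80 ± 0.37 (SE) between genotypes, with an adjusted p of 0.166 in edgeR, and Tnf by -0.26 ± 0.39, with 0.730. Il6 was near its detection limit, and no fold is given. Stat3 (-0.22 ± 0.15) and Socs3 (-0.32 ± 0.32) had adjusted p of 0.368 and 0.557, and Cebpb (0.55 ± 0.23) had 0.119. Of 19 genes of IL-1, TNF, and NF-κB signaling, 1 rose, Tnfaip3, a feedback inhibitor of NF-κB, by 1.13 (adjusted p = 0.000524), a share near that of all genes called higher. Without vehicle-treated control 1, 2 rose, with Tlr2 added at 0.66 (adjusted p = 0.0193). Of 8 glucocorticoid signaling genes, 0 were called (1 without vehicle-treated control 1, Sgk1, at 0.62 with an adjusted p of 0.00378), and of 14 receptor and clearance genes, 1 fell, Lrp1, by 0.72 (adjusted p = 0.000165). Tnfrsf1b, a TNF receptor, was the 1 gene of its list called in the other comparisons with all livers, 0.89 higher with FGF21 in controls (adjusted p = 0.00457) and 0.62 lower in Lmna ADKO livers under FGF21 (adjusted p = 0.00899). Without vehicle-treated control 1, Il1b was called as well in the latter, 1.31 lower (adjusted p = 0.0442).

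Cell type markers gave the setting of these values. Neutrophil markers summed to 11 to 19.2 CPM in vehicle-treated Lmna ADKO livers, overlapping the 6.54 to 14.3 CPM of the controls other than library 1, and 0 of 13 were called in edgeR with all livers, with a median log2 fold change of 0.25. Without library 1, the set of livers in which Lcn2 and Orm2 were called, that median was 0.97 and 1 of 13 was called higher, Retnlg, at 1.08 (adjusted p = 0.0272), a gene of 3 to 20 counts per library in the vehicle groups, named after its values were seen. Macrophage markers summed to 561 to 935 CPM against 731 to 1077 CPM, with 2 of 12 higher (Gpnmb and Itgax; Gpnmb not without library 1), and hepatocyte markers to 72265 to 106170 CPM against 82480 to 141821 CPM, with 3 of 10 lower (Hpd, Cps1, and Cyp2e1). Among the smaller marker lists, 2 of 6 cholangiocyte markers (Spp1 and Cftr), 2 of 7 stellate markers (Col3a1 and Lrat, the former not without library 1), and 1 of 6 endothelial markers (Lyve1) were higher, 1 of 7 adipocyte markers (Adrb3) was lower, and 0 of 7 lymphocyte markers were called. Of all genes, 5.12% were called higher and 3.36% lower with all livers, and 4.82% were called higher without library 1. With so few genes per marker list, these counts are not read as a difference from all genes. The part of these cells in the levels of the acute phase genes was not tested.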

How the data were processed

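Liver polyA RNA from 24 mice was measured as strand-specific RNA-Seq. The authors deposited raw counts of reads per gene, without normalization, for 23972 genes, all whole numbers. The submitters' processing notes name cutadapt 4.8, FastQC 0.11.8, STAR 2.7.8a, and RSEM 1.3.3, and the build GRCm38. RSEM gives estimated counts, and whether these were rounded is not given in the sources used here. Reads that match several genes are then shared out by estimate, which touches Saa1 with Saa2 and Orm1 with Orm2. The methods name Ensembl 102 annotation, and symbols were matched here for 23900 genes. The methods and the labels name different sequencing providers.

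All 24 libraries entered 1 fit with 4 groups in edgeR 4.0.16 (R 4.3.3) with TMM scaling and the robust quasi-likelihood test over all 23972 genes. Genes were called at a Benjamini-Hochberg adjusted p below 0.05 and a change above 1.5-fold. CPM used TMM library sizes, and log2 CPM used a prior count of 2. SE is the log2 fold change over the square root of F. The fit was tested on simulated data. Single members were also compared by exact two-sided permutation tests of log2 CPM. Levels between genes were compared per kilobase of the principal transcript (GENCODE M21). DESeq2 1.42.0, other scalings, filters, and sets of libraries were tried as alternatives.

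The members and the lists of other genes were chosen with earlier results of these data known. Beside all 10 members, list genes are named when called, up to 4 per list and comparison by size among those with a mean log2 CPM of 0 or more, with Il6, Il1b, Tnf, Stat3, Socs3, Cebpb, and Cebpd always named. Some genes that met this rule are not reported here. The nearest gene is the one with the highest Pearson r of log2 CPM minus the group mean. Libraries are numbered within groups by animal number. Each is a separate animal. At 19863304 to 21510054 reads per library, counting error is small for all members, and spread between animals sets the precision.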

Additional observations from a re-analysis of the deposited data

Results flagged for a closer look

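Within groups of 6 to 8 livers, the gap of the highest or lowest liver to its neighbor, over the group's whole range of log2 CPM, was compared with Dixon's 95% critical value for a group of that size. Of 30 combinations of gene and group, 12 were past it, where chance gives about 1 in 20.

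In vehicle-treated controls, library 1 was far above the other 6 for 6 genes, with ratios of 0.659 for Saa1, 0.735 for Saa2, 0.680 for Orm2, 0.614 for Hp, 0.608 for Lcn2, and 0.598 for Apcs. These 6 flags come from 1 animal.

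In FGF21-treated Lmna ADKO livers, library 4 was far below the other 7, with ratios of 0.543 for Saa1, 0.692 for Saa2, and 0.551 for Orm2. Library 7 of the same group was far above the others for Hp (0.655) and Hpx (0.582). In vehicle-treated Lmna ADKO livers, library 4 was far above the other 5 for Apcs (0.674), at 128 CPM.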

How the results depend on the processing

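The calls on the members rested on vehicle-treated control 1 and on the test. Leaving out single livers gave 0 to 2 called members between genotypes under vehicle and 0 to 1 under FGF21 (Saa3, without FGF21-treated Lmna ADKO 7), and 0 in the other 3 comparisons. With DESeq2 on only the groups compared, where replacement of outlying counts was not recorded, 4 members were called under vehicle and 1, Saa4, under FGF21. Without vehicle-treated control 1, an alternative combined after the data were seen, 4 were called with DESeq2, 1 (Lcn2) with the number series as a covariate, and 2 without the 3 libraries with a length slope. DESeq2 size factors, filtered genes, only the groups compared in edgeR, all groups in DESeq2, and the adjusted p alone changed no count of called members. Exact tests and correlations were limited by 3 FGF21-treated controls. Unless said otherwise, the cause of a change was not tested.

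Several log2 fold changes reversed. Between genotypes under vehicle, leaving out single livers gave -1.42 to 0.91 for Saa1, -1.95 to 0.83 for Saa2, -0.0896 to 0.13 for Saa3, and -0.20 to 0.35 for Orm1, where all 3 of Saa1, Saa2, and Orm1 reversed without vehicle-treated control 1 alone. DESeq2 gave 0.70 for Saa2 on all groups, where it replaced an outlying count, and 0.81 for Saa1 and 0.74 for Saa2 on only these groups. The number series as a covariate gave -0.0231 for Hpx and -0.0616 for Saa3. Without vehicle-treated control 1, the number series as a covariate gave 0.63 for Saa1, 0.58 for Saa2, 0.0896 for Orm1, and -0.0541 for Saa3, DESeq2 gave 0.91 for Saa1, 0.83 for Saa2, and 0.35 for Orm1, and leaving out the 3 libraries with a length slope too gave 0.82, 0.77, and 0.41.

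Between treatments in controls, leaving out single livers gave -1.5 to 1.29 for Saa1, -2.21 to 0.94 for Saa2, -0.83 to 0.88 for Orm2, and -0.69 to 1.22 for Lcn2. DESeq2 on only these groups gave 1.24 for Saa1, 0.91 for Saa2, 0.84 for Orm2, and 1.16 for Lcn2, and 0.83 for Saa2 on all groups. Without vehicle-treated control 1, DESeq2 gave 1.31, 0.96, 0.90, and 1.24, the number series as a covariate 0.85, 0.59, 0.59, and 0.59, and leaving out the 3 libraries too 0.54, 0.29, 0.38, and 0.69. Lcn2 stayed at 1.22 there with paralogs summed. In exact tests of CPM in place of log2 CPM, the sign turned for Saa1 (p = 0.997), Saa2 (p = 0.998), and Orm1 (p = 0.987) between genotypes, and for Saa1 (p = 0.975), Saa2 (p = 0.967), Orm2 (p = 0.967), and Lcn2 (p = 0.983) between treatments.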
